A study of Arabidopsis thaliana with 6 samples.

Results

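The genes described here are nuclear genes of Arabidopsis thaliana for the chloroplast NDH complex, for proteins of the thylakoid lumen and for factors that assemble or repair the photosystems. They were taken from a list of 55 loci, which was chosen with earlier results of these data known. A member was measured where a probe set of the array was assigned to that locus alone by the platform's gene table, which held for 26 of the 55. These 26 stood among 13356 genes with a probe set of their own. The other 29, among them all listed members of NDH subcomplex B, of the NDH lumen subcomplex and of the lumenal DEG proteases, were not analysed here.

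The NDH complex of the chloroplast takes electrons from ferredoxin and passes them to plastoquinone, and so feeds cyclic electron flow around photosystem I. Part of its subunits are encoded in the plastid and the rest in the nucleus. The thylakoid lumen is the space enclosed by the photosynthetic membrane. Besides plastocyanin and the extrinsic subunits of photosystem II it holds relatives of these subunits, immunophilins (proteins with a prolyl isomerase fold), pentapeptide-repeat proteins and proteases, many of which act in assembly, repair or upkeep of the photosystems. The nuclear-encoded ones are made in the cytosol and imported.

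The leaf group was taken from Col-0 plants grown for 20 days. For the callus group, blades of such leaves were cultured on callus-inducing medium (CIM), which supplies an auxin, a cytokinin and glucose, for a further 20 days. Each tissue was represented by 3 arrays, described in the study's methods as independent experiments. Both groups were wild type, so tissue, medium, hormones and time in culture differed together and cannot be told apart. A daily light period of 16 h is given for plants and calli in the sample labels, whereas the methods state that explants on CIM were kept in the dark, and the part of light in the differences was not tested. In such bulk RNA, fewer green cells and less of an RNA in each cell cannot be told apart.

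Replicates lay close together. The lowest Pearson correlation across genes was 0.9967 among callus arrays and 0.9949 among leaf arrays, and 0.765 to 0.775 between the tissues, over genes that are not independent of each other. The tissue labels were checked against marker genes. Of 10 listed leaf markers 4 were measured, and all 4 were lower in callus (LHCB4.2, PRK and the guard cell genes GC1 and FAMA). The log2 of their summed level was 6.58 to 6.68 in callus and 13.93 to 14.03 in leaf. In leaf this sum was mostly LHCB4.2 and PRK, at means of 13.15 and 12.72, with GC1 next at 8.64. PRK and FAMA lay under the first quartile of every callus array. Of 13 listed callus and root markers 5 were measured. Among these 5, 4 were higher in callus (LBD16, BBM, PYK10 and MCM7), and LBD29 was not called (log2 fold change 0.34). The log2 of their summed level was 12.8 to 12.9 in callus and 6.78 to 6.84 in leaf. Levels were summed on the linear scale, so in callus this was mostly PYK10, at a mean of 12.71, with BBM next at 8.00. The guard cell and mesophyll markers therefore moved with all results below, and their part in these was not tested. The 3' minus 5' difference of the control transcripts, a measure of RNA integrity, also differed. For actin it was 3.66 to 3.81 in callus against 2.84 to 3.26 in leaf by the first set of probe sets, and 1.48 to 1.59 against 1.57 to 2.11 by the second. For GAPDH it was 0.458 to 0.703 against 0.906 to 1.03 and 0.291 to 0.461 against 0.184 to 0.314. Its part in the results was not tested.

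Every measured member was expressed at a lower level in callus than in leaf. A gene was called at a change of more than 2-fold with a limma adjusted p under 0.05. By this rule 26 of 26 members were lower and 0 were higher, where 13.2% of all genes were lower and 16.4% higher. Because the members were chosen with earlier results of these data known, this contrast is a description and no independent support. The median log2 fold change (callus minus leaf) of the members was -4.77, against 0.01 for all genes. In linear terms, leaf exceeded callus between 3.88-fold and 244-fold, with a median of 27.2-fold. A decrease of more than 16-fold was found for 19 of 26 members and for 2.25% of all genes. Ordered from the lowest change upward, the members held places 7 to 978 of 13356.

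**Figure D1:**
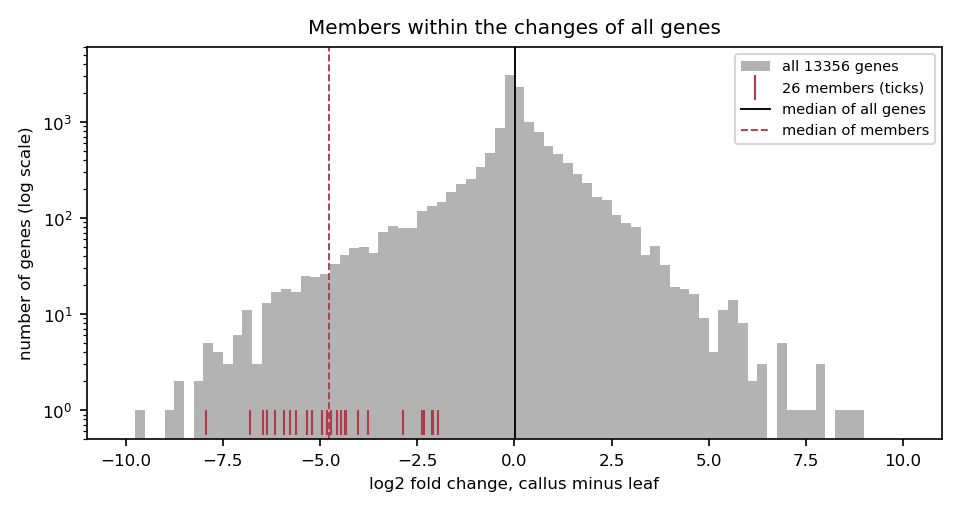
Histogram of the log2 fold change (callus minus leaf, 3 arrays each) of all 13356 genes, on a log scale of gene number, with the 26 members as red ticks. All ticks lie left of zero, and the dashed line marks their median of -4.77 beside the median of 0.01 for all genes.

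The differences were far larger than the spread between arrays. In all 26 members the 3 callus arrays lay wholly below the 3 leaf arrays, as they did for 29.4% of all genes. The smallest gap between the highest callus and the lowest leaf value was 1.82 on the log2 scale, in CYP26-2 (AT1G74070). The widest range within a group was 0.588, among the leaf arrays of TL17 (AT5G53490). Adjusted p-values ran from 2.37e-18 to 8.63e-10 (limma, adjusted over all genes). In leaf, all 26 members lay above the array median. In callus, 19 lay below the median on every array and 7 above it on every array. The latter were AT1G51400, PSB27, PYG7, CYP28, FKBP17-1, FKBP19 and FKBP20-2. Signals of NdhL and NdhV fell under the first quartile of all 3 callus arrays. Those of FIP, TL15 and PPD2 fell under it on 1 or 2. The deposited values carry no detection call, so folds against such dim signals are not exact.

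**Figure D2:**
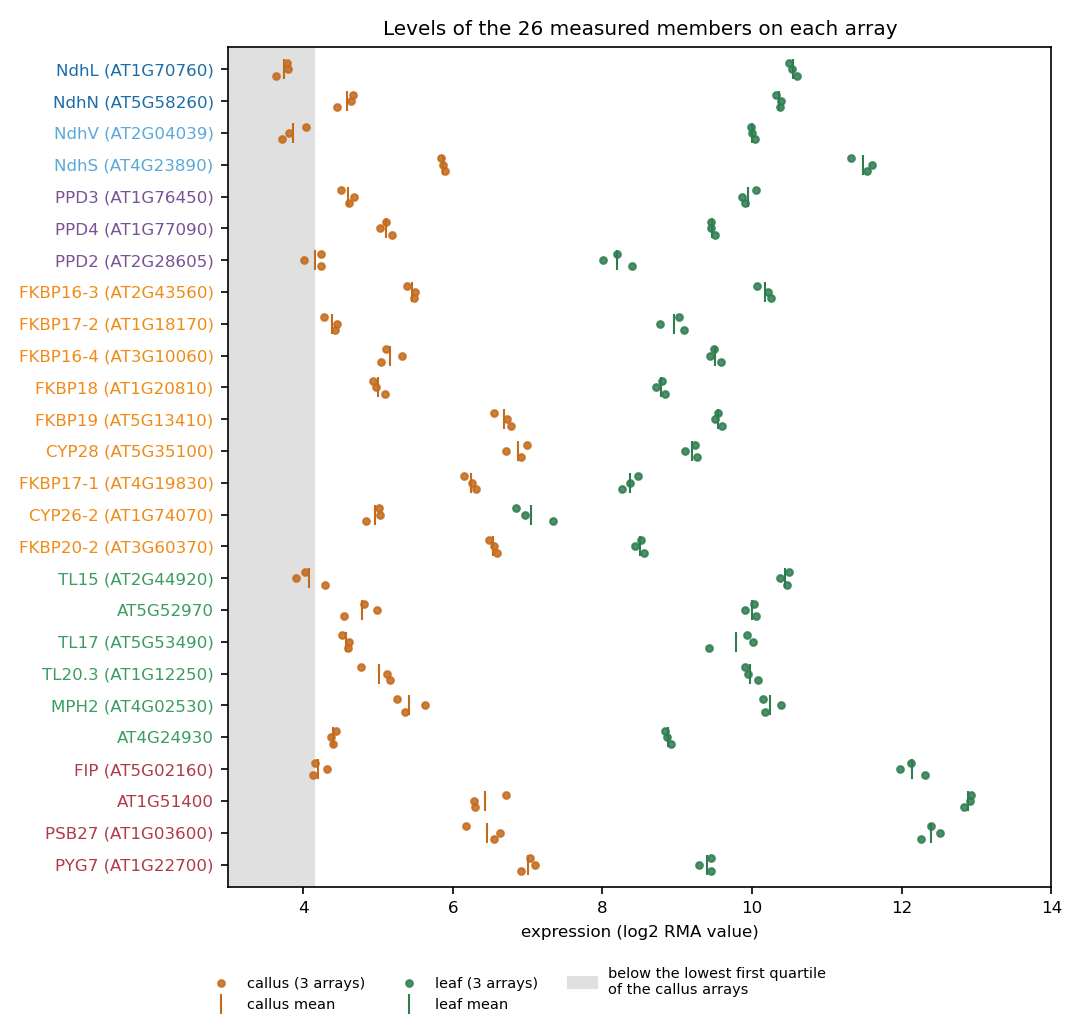
Expression (log2 RMA value) of the 26 measured members on each of 3 callus and 3 leaf arrays, with group means as vertical strokes and names coloured by role. Callus points lie left of all leaf points in every row by at least 1.82, and the grey band marks values under the lowest first quartile of the callus arrays.

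Of 19 listed nuclear NDH genes 4 were measured, and all 4 fell by more than 32-fold. A decrease of this size was found for 11 of 26 members and for 152 of 13356 genes. NdhL (AT1G70760) encodes a membrane subunit of NDH subcomplex A. Its log2 values were 3.63, 3.80 and 3.79 on the callus arrays and 10.60, 10.53 and 10.49 on the leaf arrays. Its log2 fold change was -6.80 ± 0.0895 (SE, limma adjusted p = 8.91e-18), the lowest of the NDH genes. NdhN (AT5G58260), a subunit of the same subcomplex on its stromal side, read 4.45, 4.63 and 4.67 in callus and 10.38, 10.38 and 10.32 in leaf. The groups were far apart for both genes, and the change of NdhN was -5.78 ± 0.0867 (SE, adjusted p = 3.00e-17).

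The other pair belongs to the part of the complex that binds the electron donor. NdhS (AT4G23890), which forms the docking site for ferredoxin, read 5.89, 5.87 and 5.85 in callus and 11.53, 11.61 and 11.32 in leaf. This was a change of -5.62 ± 0.0779 (SE, adjusted p = 1.52e-17). NdhV (AT2G04039), a loosely attached subunit that stabilizes this part, read 3.72, 3.81 and 4.04 in callus and 10.03, 9.995 and 9.988 in leaf. Callus signals of NdhS thus stood above the first quartile on all arrays, whereas those of NdhV did not on any. The change of NdhV was -6.15 ± 0.101 (SE, adjusted p = 7.65e-17). The 4 nuclear subunits lay within -6.80 to -5.62, with a median of -5.96, and the other 22 members had a median of -4.52. The medians were not compared by a test.

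Plastid-encoded subunits of the same complex were measured for 10 of 12 listed genes. Of these 10, 8 were lower in callus, where 13.2% of all genes were, and their median log2 fold change over all 10 was -2.96. NDHJ and NDHD changed most, by -5.37 ± 0.208 and -5.33 ± 0.133 (SE). NDHF and NDHH were not called (-0.48 and -0.67, adjusted p = 0.000614 and 9.47e-05), and both lay under the array median in leaf too, at 4.56 ± 0.108 and 4.43 ± 0.233 (mean ± SD, n = 3, limma). In callus, NDHH and NDHE (log2 fold change -2.56) fell under the first quartile on 3 arrays, NDHF on 2 and NDHJ on 1, so their folds are not exact. Leaf replicates of NDHK and NDHJ, with SDs of 0.833 and 0.618, scattered more than those of any member, where the largest leaf SD was 0.317. Because the RNA was primed with oligo(dT), plastid transcripts, which mostly lack long tails, and nuclear ones are not equally represented.

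Of 14 genes listed for assembly of the NDH complex and expression of its subunits, 5 were measured. Among these 5, 3 were lower in callus and 2 were not called, where 13.2% of all genes were lower. PAM68L, another gene of NDH assembly, was listed with the photosystem factors and not counted here, and was lower (-5.86). CRR42, which acts in the assembly of subcomplex A, fell by 4.85 on the log2 scale (SE 0.104), with callus signals under the first quartile on 2 of 3 arrays, so that its fold is not exact. CRR41, of the same process, fell by 1.69 (SE 0.127). CRR21, an RNA-binding protein needed for editing of an ndh transcript, fell by 1.22 (SE 0.117). The editing factors CRR22 and CRR28 stood at -0.22 (95% interval -0.47 to 0.03) and -0.56 (-0.81 to -0.31), neither of them past 2-fold. CRR21, CRR22 and CRR28 lay under the array median in leaf as well as in callus, with leaf means of 5.55, 5.10 and 5.03. Their folds are therefore not exact. For the other routes of electrons around photosystem I, PGRL1B, a partner of PGR5, fell by 4.12 (SE 0.102). NDC1, a plastoglobule dehydrogenase, was on the same list and was not called at -0.60. Its change is not read as that of such a route.

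PsbP-domain proteins are relatives of PsbP, an extrinsic subunit that stabilizes the water-splitting site of photosystem II. Of 8 listed genes of this kind 3 were measured, and all 3 fell. AT1G76450 (PPD3) read 4.61, 4.68 and 4.51 in callus and 9.91, 9.87 and 10.05 in leaf, a change of -5.34 ± 0.0900 (SE, limma adjusted p = 9.91e-17). AT2G28605 (PPD2) read 4.24, 4.01 and 4.24 in callus and 8.39, 8.01 and 8.19 in leaf, a change of -4.04 ± 0.122 (SE, adjusted p = 7.98e-14). Replicates of PPD2 scattered more than those of PPD3 in both tissues, and its callus signal was under the first quartile on 1 array. AT1G77090 (PPD4) had a change between these, from 5.11 ± 0.0835 in callus to 9.47 ± 0.0312 in leaf (SD, n = 3), a change of -4.36.

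Immunophilins of the lumen had the smallest median decrease of the roles measured. Of 11 listed genes 9 were measured, 7 of the FKBP type and 2 cyclophilins, and their median log2 fold change was -2.86. The 9 fell into a group at -4.72 to -3.78 and a group at -2.86 to -1.96, as read from the values with no test. AT2G43560 (FKBP16-3) had the largest decrease, with 5.49, 5.50 and 5.39 in callus and 10.25, 10.22 and 10.07 in leaf (log2 fold change -4.72 ± 0.0814, SE, adjusted p = 1.31e-16). FKBP20-2 (AT3G60370), known for a part in the accumulation of photosystem II supercomplexes, had the smallest decrease of all 26 members. It read 6.59, 6.56 and 6.49 in callus and 8.56, 8.43 and 8.51 in leaf, a change of -1.96 ± 0.0813 (SE, adjusted p = 4.06e-12). Its arrays were among the tightest, and the groups were 1.85 apart.

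The remaining 7 immunophilins had changes between these, with none between -3.78 and -2.86. AT1G18170 (FKBP17-2) stood at 4.39 ± 0.0949 in callus and 8.96 ± 0.171 in leaf, and AT3G10060 (FKBP16-4) at 5.16 ± 0.147 and 9.50 ± 0.0772 (SD, n = 3). These were changes of -4.58 and -4.34. AT1G20810 (FKBP18) changed by -3.78 ± 0.0928 (SE). Callus signals above the array median were found for AT5G13410 (FKBP19), with 6.69 ± 0.122 against 9.55 ± 0.0508, and for AT4G19830 (FKBP17-1), with 6.24 ± 0.0833 against 8.37 ± 0.108. Their changes were -2.86 and -2.13. Both cyclophilins were in the group of smaller decreases. AT5G35100 (CYP28) changed by -2.32 ± 0.0870 (SE), with 6.87 ± 0.143 in callus, also above the array median, and 9.20 ± 0.0865 in leaf (SD). AT1G74070 (CYP26-2) changed by -2.09 ± 0.133 (SE), from 7.05 ± 0.261 in leaf to 4.96 ± 0.105 in callus (SD).

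Related members could be set against each other by the ratio of their signals within an array, which has no meaning by itself but can be compared between the tissues. For FKBP17-2 and FKBP17-1 the log2 ratio was 0.59 ± 0.219 in leaf and -1.85 ± 0.0460 in callus (SD, n = 3, exact permutation test, two-sided, p = 0.1). The change of FKBP17-2 minus that of FKBP17-1 was thus -2.45. Callus signals of FKBP17-2, at 4.28 to 4.45, lay close above the first quartiles of those arrays (4.15 to 4.21), so this difference is not exact. In the pair FKBP16-3 and FKBP16-4 the difference of the changes was -0.38. Among the PsbP-domain genes it was -1.31 for PPD3 minus PPD2, -0.98 for PPD3 minus PPD4 and -0.32 for PPD4 minus PPD2. The callus signal of PPD2 was under the first quartile on 1 array, so the differences against PPD2 are not exact. Ratios of the tissues did not overlap in any of the 5 pairs, and each gave an exact permutation p = 0.1, before and after adjustment over the 5. This is the smallest two-sided p that 3 arrays against 3 allow, so no pair could pass a threshold of 0.05. The pairs were chosen after the values were seen.

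Pentapeptide-repeat and other lumen proteins were measured for 6 of 7 listed genes. All 6 fell by more than 16-fold, with a median log2 fold change of -5.09. AT2G44920 (TL15), a pentapeptide-repeat protein, read 4.29, 3.91 and 4.02 in callus and 10.46, 10.38 and 10.49 in leaf, a change of -6.37 ± 0.102 (SE, limma adjusted p = 6.10e-17). The other pentapeptide-repeat genes fell less. For TL17 the values were 4.60, 4.61 and 4.52 in callus and 9.43, 10.01 and 9.93 in leaf (-5.21 ± 0.128, SE, adjusted p = 6.50e-15). Leaf replicate 1 of TL17 was lower than the other leaf arrays and still 4.81 above the highest callus array. AT1G12250, the third gene of this type, changed by -4.96 (SE 0.104).

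MPH2 (AT4G02530), which takes part in the repair of photosystem II under strong light, changed by -4.81, from 10.2 ± 0.133 in leaf to 5.42 ± 0.191 in callus (SD, n = 3). AT5G52970, for a lumenal protein with no assigned role here, changed by -5.22 (SE 0.106). The smallest decrease of these 6 was that of AT4G24930, likewise a lumenal protein. It read 4.40, 4.38 and 4.43 in callus and 8.91, 8.87 and 8.84 in leaf, and its arrays differed by at most 0.0759 within a tissue. Its change was -4.47 ± 0.0928 (SE, adjusted p = 1.02e-15).

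Factors for photosystem assembly and repair and small photosystem subunits held the largest decrease of all members. Of the 4 measured, 3 fell by more than 32-fold, as did 152 of all 13356 genes. Of 7 listed genes these 4 were measured. AT5G02160 (FIP) encodes a thylakoid protein that interacts with the FtsH5 protease subunit. It read 4.13, 4.32 and 4.15 in callus and 12.31, 11.97 and 12.12 in leaf. The log2 fold change was -7.93 ± 0.0916 (SE, adjusted p = 2.37e-18), and only 6 of 13356 genes had a lower one. AT1G51400, for a small protein of photosystem II, read 6.29, 6.29 and 6.71 in callus and 12.84, 12.91 and 12.92 in leaf. Callus replicate 3 stood apart from the other callus arrays, which gave the largest callus SD among the members (0.242), yet the groups were 6.13 apart and the change was -6.46 ± 0.0929 (SE, adjusted p = 2.03e-17).

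PSB27 (AT1G03600), which binds photosystem II during its assembly, read 6.55, 6.63 and 6.18 in callus and 12.26, 12.51 and 12.39 in leaf. The change was -5.93 ± 0.0994 (SE, adjusted p = 9.41e-17). PYG7 (AT1G22700), an assembly factor of photosystem I, changed far less, with 6.91, 7.09 and 7.03 in callus and 9.45, 9.29 and 9.45 in leaf. Its log2 fold change was -2.39 ± 0.0794 (SE, adjusted p = 2.60e-13), and its callus signal was above the array median on all 3 arrays.

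**Figure D3:**
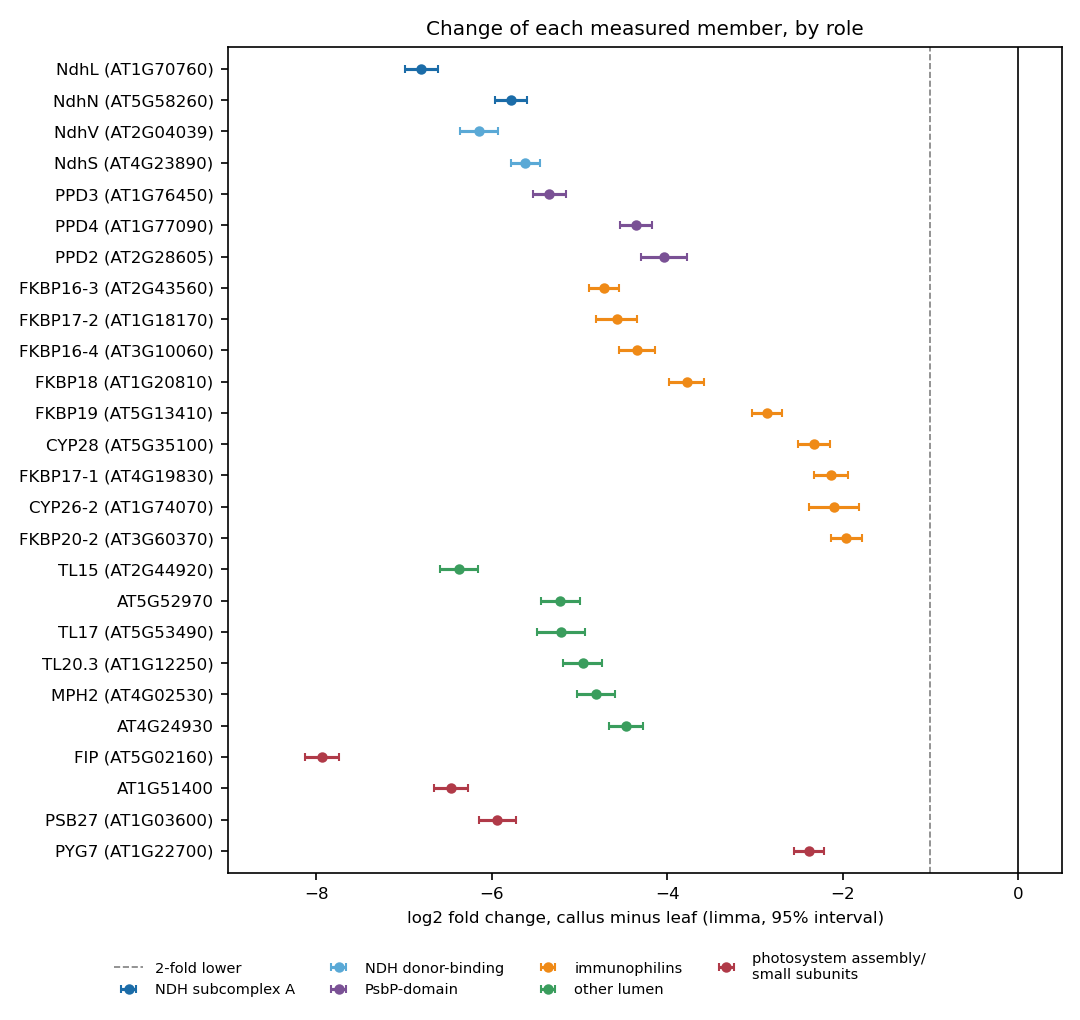
Log2 fold change (callus minus leaf) of each measured member with its 95% interval from limma (3 arrays a group), coloured by role. Values run from -7.93 for FIP to -1.96 for FKBP20-2, every interval lies beyond the dashed line of a 2-fold decrease, and the median of the immunophilins is -2.86.

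Other genes of the same processes were mostly lower in callus too. These lists were drawn up with results of these data known, so their counts are a description and no independent support. Over all such lists 35 of 96 listed genes were measured. Of these, 29 were lower and 0 higher, where 13.2% of all genes were lower and 16.4% higher. The median log2 fold change of the 35 was -2.88. When the plastid-encoded subunits are left out, 21 of 25 were lower. Of 19 listed other lumen proteins 9 were measured, and 8 of these fell. PSAN, the lumenal subunit of photosystem I, changed by -7.74 ± 0.102, and FKBP16-1 and FKBP17-3, relatives of the immunophilins above, by -3.60 ± 0.0786 and -3.28 ± 0.0768 (SE). LCNP, a lumenal lipocalin, changed by -3.12. Peptidase genes fell less or were not called, with CTPA2, whose enzyme trims the D1 protein, at -1.97, CTPA1 at -1.94 and CTPA3 not called at -0.48. CTPA3 lay under the array median in both tissues, at a mean of 4.78 in callus and 5.26 in leaf.

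Of 23 genes listed as other photosystem assembly and repair factors 7 were measured, and all 7 were lower, where 13.2% of all genes were. Among them was PAM68L, whose part is in NDH assembly. It changed by -5.86 ± 0.102 (SE), with callus signals under the first quartile on all 3 arrays, so that its fold is not exact either. RBD1, a rubredoxin-like factor for photosystem II, changed by -5.63 ± 0.0794 (SE). PAM68 and HCF101 followed at -3.79 and -3.52. The machinery that inserts or moves proteins into the thylakoid had 11 listed genes, of which 2 were measured. Both fell, with SECE at -3.90 and THA4, of the twin-arginine route, at -2.88 on the log2 scale. The listed regulators of nuclear photosynthesis genes, GLK1 and GLK2 among them, were not analysed here.

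**Figure D4:**
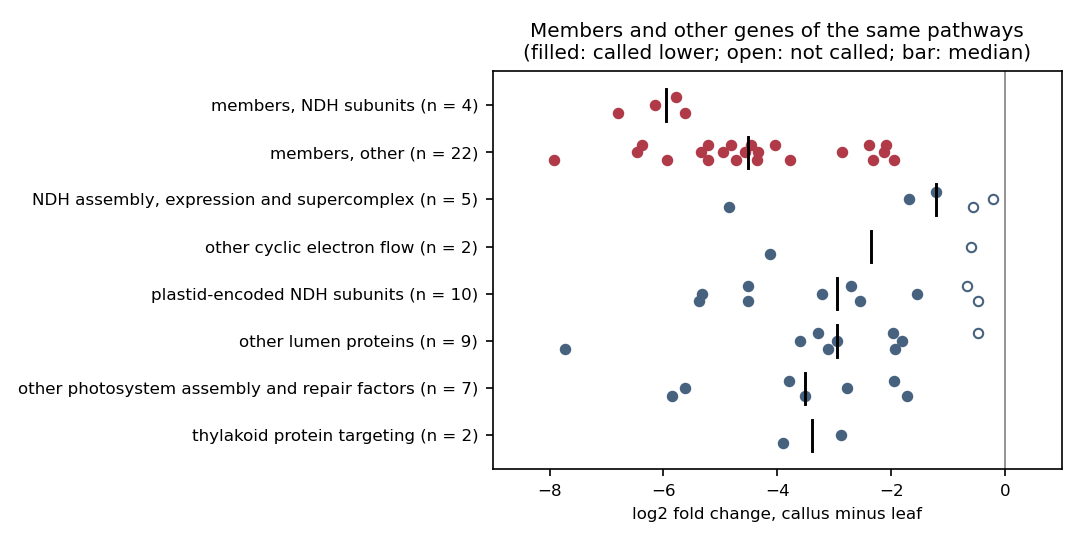
Log2 fold change (callus minus leaf) of the measured members, in red, and of other genes of the same processes, in blue, with 1 point per gene, filled where called lower and open where not called, and a bar at each median. The 26 red points are all filled, against 29 of 35 blue ones, and the 4 NDH members lie between -6.80 and -5.62.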

How the data were processed

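RNA of 3 callus and 3 leaf samples was hybridized to Affymetrix GeneChip arrays. Values of all probe sets were deposited by the authors on a log2 scale. RMA (background correction, quantile normalization and summary over probes) and Partek are named in the submitters' processing notes, without versions. Quantile normalization hides a change in total RNA per cell. The number of arrays limits the precision.

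Of 22810 probe sets 64 were controls, 13513 had 1 gene, 503 had several and 8730 were not listed in the platform's gene table. Loci were found through gene identifiers in the TAIR10.1 RefSeq gene table, which gave a locus name as the symbol for 22 of the 26 members. Common names of these come from general knowledge. Genes with several probe sets were represented by that of the highest mean, and no measured member had more than 1. There were 0 columns of other samples.

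Callus and leaf were compared with lmFit and trended eBayes of limma 3.58.1 (R 4.3.3) over 13356 genes, with Benjamini-Hochberg adjustment. Genes were called at adjusted p under 0.05 and more than 2-fold. The script was tested on simulated data. All members may be named. Array values are given for the largest and smallest change in each role, the 3 highest leaf means and the largest SDs, and up to 4 called genes per pathway list are named, with others of these lists added after their values were seen. Members and lists were chosen with earlier results of these data known. Alternatives were other thresholds, moderation, scaling, filters, probe set choice, a replicate block and leaving out each array.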

Additional observations from a re-analysis of the deposited data

How the results depend on the processing

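All 26 members kept their call and direction under every alternative except the 4-fold threshold, where 25 were lower and FKBP20-2 was not called (log2 fold change -1.96). The 26 members were called again under 18 alternatives, and 467 of 468 values stayed on their side of the threshold. Many of these values could not have moved, so the count is no measure of robustness. Other thresholds, moderation, filters, probe set choice and the replicate block left the log2 fold changes of the members as they were. The looser thresholds could lose no call. Only scaling and leaving out an array altered the changes. Without any single array, 26 members were lower and the median change of the members was between -4.83 and -4.71. Scaling moved that median to -5.35 when centred on TIP41, to -4.51 on the hybridization controls and to -4.11 on the poly-A controls, with shifts of the median of all genes by -0.59, 0.26 and 0.66. Counts over all genes moved more. Lower and higher genes numbered 2794 and 1257 on TIP41 against 1160 and 4121 on the poly-A controls. They were 3572 and 4598 with no fold threshold and 956 and 839 at 4-fold, against 1765 and 2193 as deposited, each of 13356 genes. With every probe set except the controls tested, 3392 and 4164 probe sets were called. These are counts out of 22810 probe sets less 64 controls and cannot be set against the gene counts. Deviations of same-numbered arrays from their group means correlated at -0.11, 0.07 and -0.04, and those of differently numbered arrays at -0.11 to 0.12. No pairing by replicate number was visible in these values, which does not show that the samples were unpaired. With the replicate block 26 members were lower, and 1765 and 2193 genes were called as before. Signals under the first quartile on some or all callus arrays limit the folds of the members NdhL, NdhV, FIP, TL15 and PPD2. The same holds for CRR42, PAM68L, NDHE, NDHH, NDHF and NDHJ among the pathway genes named.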

Other observations

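Genes next to the members on the chromosome, by their order in the TAIR10.1 gene table, were measured in 23 cases. Of these 4 were lower in callus, 6 higher and 13 not called, where 13.2% of all genes were lower and 16.4% higher, and their median log2 fold change was 0.03. The following were chosen after their values were seen. AT2G28600, beside PPD2, was higher by 3.80 ± 0.153 (SE, limma adjusted p = 2.70e-12). AT1G70770, beside NdhL, was higher by 1.81 ± 0.0785 (SE). AT2G43550, beside FKBP16-3, changed by -4.23 ± 0.108 and the guard cell gene GC1, beside PYG7, by -3.88 ± 0.121 (SE).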
